A study of Mus musculus with 12 samples.

Results

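The genes described here make, break down and read out the cyclic nucleotides cAMP and cGMP: adenylyl and guanylyl cyclases, phosphodiesterases, and the subunits of the kinases PKA (cAMP-dependent) and PKG (cGMP-dependent). They were taken by symbol from a table of read counts per gene, as every symbol beginning with Adcy, Pde, Prkaca, Prkacb, Prkar, Gucy or Prkg, where Adcy and Prkg had to be followed by a digit and Pde by a digit and a letter. This gave 50 of the 22899 genes in the table. A total of 37 had enough counts to be tested, among 13139 tested genes, and the other 13 had at most 12 counts in any library. The letters also took in Pde4dip (myomegalin), a Golgi and centrosome protein that is not a phosphodiesterase, and Pde6d, a chaperone of prenylated proteins first found with the photoreceptor enzyme. They left out Pde10a, Pde11a and Pde12, whose numbers have more than 1 digit; their KA values are given once below as genes outside the 50.

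RNA sequencing had been done on primary neurons of C57Bl6 mice in 4 groups of 3 libraries. One group received kainic acid (KA), which opens kainate and AMPA receptors for glutamate, at 100 µM in the medium, and KA control was its untreated group. The other was deprived of oxygen and glucose (OGD), a culture model of ischaemia, and OGD control was its untreated group. All groups shared the strain and cell type, and no genetic change was given for any of them. The sources used here do not give the brain region, the age of the animals, the length of exposure or any recovery time, nor whether replicates were separate cultures, so p-values measure the spread between libraries, which may be technical.

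As background, adenylyl cyclases are switched on or off by G proteins, and Adcy1 and Adcy8 are also stimulated by calcium through calmodulin. cAMP frees the catalytic subunits of PKA (Prkaca, Prkacb) from the regulatory subunits (Prkar genes), and in neurons PKA phosphorylates channels, receptors and the transcription factor CREB. cGMP comes from the nitric oxide receptor, soluble guanylyl cyclase, or from membrane guanylyl cyclases, and acts through PKG and through phosphodiesterases. Phosphodiesterases end both signals: the Pde4, Pde7 and Pde8 families cut cAMP, Pde5 and Pde9 cut cGMP, and Pde1, Pde2 and Pde3 act on both.

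Total counts per library ranged from 12873444 in KA replicate 3 to 21142267 in KA control replicate 2, and 1 count was worth 0.0429 to 0.0832 CPM. CPM is a gene's share of its library's counts on a common scale, here set by the TMM method of edgeR. Of the neuron markers, Tubb3, Map2 and Snap25 were present in all groups, while Rbfox3, which encodes NeuN, was under 1 CPM in every library. Summed neuron markers were 8625 to 9295 CPM in KA libraries against 6536 to 6613 CPM in KA control libraries, and 7834 to 8024 CPM in OGD libraries against 7555 to 7847 CPM in OGD control libraries. Of 9 tested neuron markers 5 were higher and 1 lower in KA, and 2 were higher and 2 lower in OGD. For these and the other marker counts, the shares of all tested genes were 35.2% higher and 37.6% lower in KA. In OGD they were 17.6% higher and 20.5% lower. Nefl, for example, averaged 1517 CPM in KA against 395 CPM in KA control, while Tubb3 averaged 2084 CPM in KA against 2360 CPM in KA control. Summed astrocyte markers were 192 to 207 CPM in KA libraries against 69.6 to 70.9 CPM in KA control libraries, with 5 of 7 tested markers higher in KA. They were 79.7 to 89.7 CPM in OGD libraries against 99.8 to 112 CPM in OGD control libraries, with 3 of 7 lower in OGD. Summed microglia markers were 9.40 to 12.7 CPM in KA against 5.11 to 6.39 CPM in KA control, and fibroblast and mural markers, with Pdgfrb at 0 in every library, were 17.1 to 18.0 CPM in KA against 4.61 to 5.01 CPM in KA control. In the OGD experiment, microglia markers summed to 5.33 to 6.33 CPM in OGD and 4.51 to 6.74 CPM in OGD control, and fibroblast and mural markers to 13.5 to 14.8 CPM in OGD and 17.7 to 19.6 CPM in OGD control. Endothelial markers summed to at most 3.64 CPM in any library. In bulk RNA, a change in the share of a cell type and a change in RNA per cell cannot be told apart, and the part of these markers in the results below was not tested.

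After kainic acid, most of the tested cyclic nucleotide genes differed from KA control, as did most of all tested genes. The cGMP-dependent kinase Prkg2, the phosphodiesterases Pde3a, Pde4a, Pde4b and Pde4d, the cyclases Adcy8, Adcy9 and Gucy2e and the PKA regulatory subunit Prkar2a rose 2-fold or more. Pde6d, the soluble guanylyl cyclase subunit Gucy1a2, Pde1b, Pde5a and Prkar2b were among those that fell. Against OGD control, as given below, Adcy9, Pde1b and Pde5a did not pass, Pde3a was lower and Prkar2b was higher in KA. A total of 28 of the 37 tested genes passed the test, 16 higher and 12 lower in KA, at an adjusted p under 0.05 (edgeR quasi-likelihood test, Benjamini-Hochberg over all tested genes). That was 75.7% of the 37, against 72.7% of all tested genes, of which 35.2% were higher and 37.6% lower, so the share called was close to the background. The median log2 fold change of the 37 genes was 0.29, against -0.02 over all tested genes, and 10 of them differed by more than 2-fold. After OGD the changes were smaller and mostly downward: 13 of 37 genes passed, 2 higher and 11 lower, or 35.1% against 38.1% of all tested genes (17.6% higher and 20.5% lower). The median was -0.09 for the 37 genes, against 0.01 over all tested genes, and no gene passed 2-fold.

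**Figure D1:**
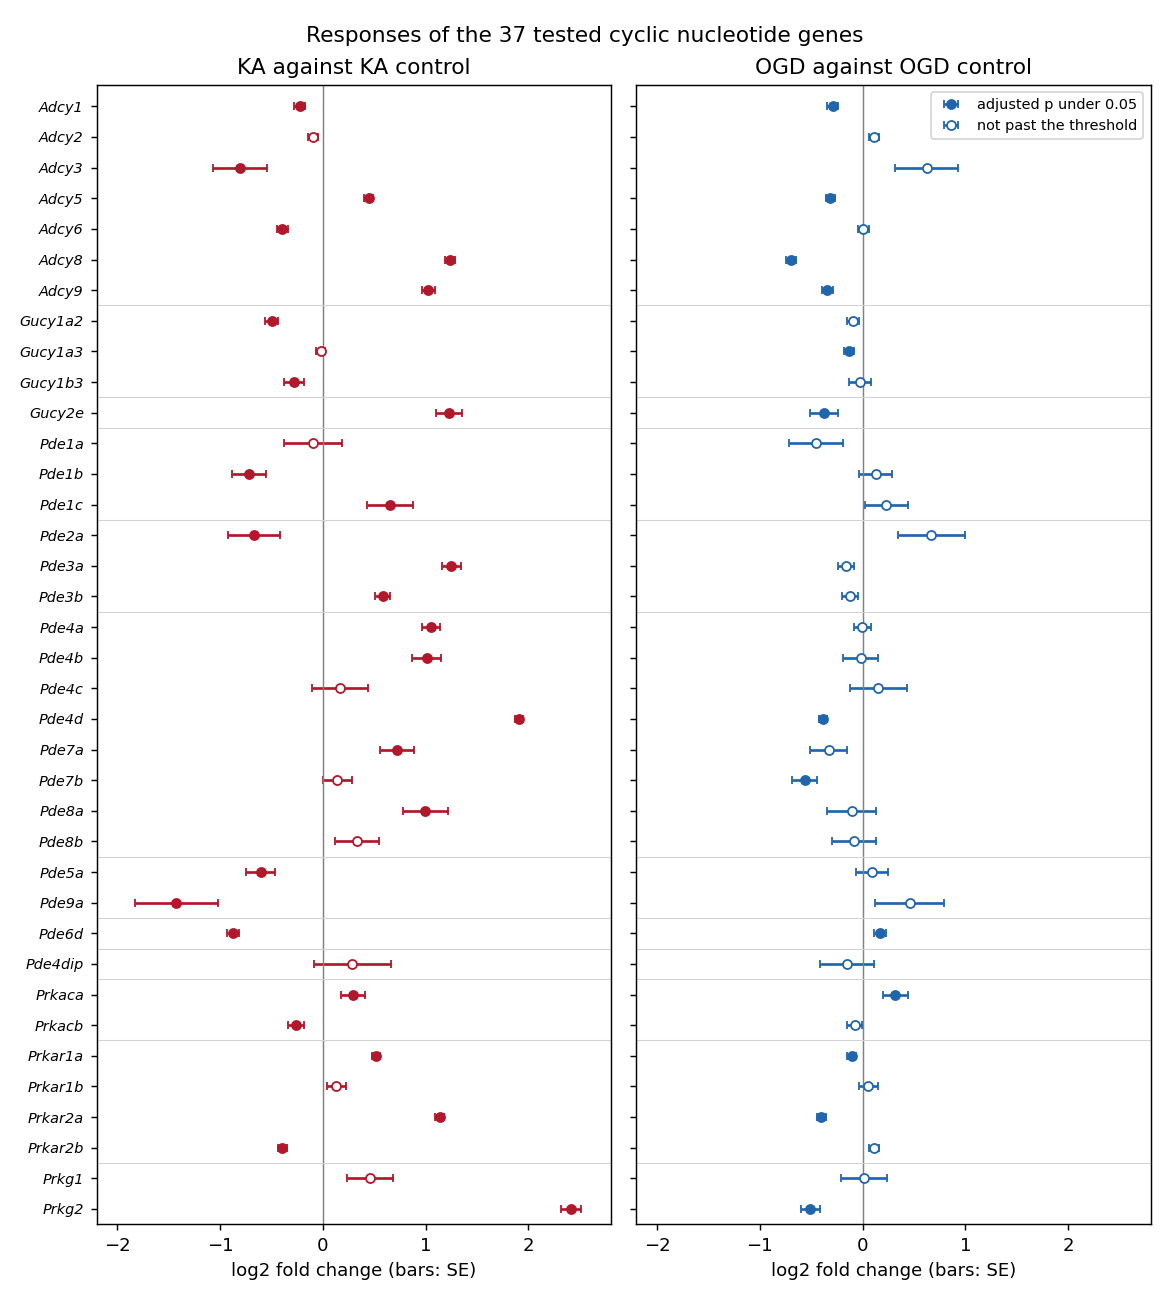
Log2 fold change of each tested cyclic nucleotide gene in KA against KA control and in OGD against OGD control, grouped by role; points show the fitted change, bars its SE, and open points did not pass the test. The KA changes run from -1.43 (Pde9a) to 2.42 (Prkg2), and the OGD changes that passed the test run from -0.70 (Adcy8) to 0.32 (Prkaca).

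Adenylyl cyclases were the first step measured, with 7 of the 10 genes tested. The family split in KA: Adcy5, Adcy8 and Adcy9 rose, Adcy1, Adcy3 and Adcy6 fell, and Adcy2 did not pass. In OGD none rose and 4 fell. Of all tested genes, 35.2% were higher and 37.6% lower in KA, and 17.6% were higher and 20.5% lower in OGD. Adcy8, a calcium-stimulated cyclase (chromosome 15, 64697084 to 64922296, minus strand, mm10), had 165, 164 and 158 CPM in KA, against 69.2, 69.3 and 68.3 CPM in KA control. It had 67.8, 71.8 and 65.2 CPM in OGD, against 108, 116 and 109 CPM in OGD control. The treated and untreated libraries did not overlap in either experiment, and the direction was opposite in the 2 experiments. The log2 fold change was 1.24 (SE 0.05, adjusted p = 4.73e-20) in KA and -0.70 (SE 0.05, adjusted p = 3.08e-12) in OGD, by edgeR with Benjamini-Hochberg adjustment.

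Adcy9, a widely expressed cyclase that is little affected by forskolin, had 53.6, 51.3 and 54.4 CPM in KA, against 26.3, 25.1 and 26.8 CPM in KA control. In OGD it had 39.2, 44.6 and 40.1 CPM, against 49.9, 52.9 and 54.5 CPM in OGD control. Its log2 fold change was 1.03 (SE 0.06) in KA and -0.34 (SE 0.06) in OGD (edgeR adjusted p = 2.55e-15 and 2.48e-05), with no overlap in either pair. Adcy5, the main cyclase of the striatum, went the same way with smaller changes, averaging 194.8 ± 0.760 CPM in KA against 143.1 ± 4.16 CPM in KA control (SD, n = 3 each), a log2 fold change of 0.45. In OGD it averaged 188.6 ± 7.82 CPM, against 234.6 ± 3.54 CPM in OGD control, a log2 fold change of -0.31.

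Adcy1, the other calcium-stimulated cyclase (chromosome 11, 7063489 to 7178506, plus strand), fell in both treatments, unlike Adcy8. It had 969, 827 and 965 CPM in KA against 1143, 996 and 1087 CPM in KA control, and 931, 1017 and 953 CPM in OGD against 1134, 1186 and 1224 CPM in OGD control. Neither pair overlapped, although KA replicate 1 and KA control replicate 2 lay close together. The log2 fold change was -0.22 (SE 0.05, edgeR adjusted p = 5.04e-04) in KA and -0.29 (SE 0.05, edgeR adjusted p = 8.95e-05) in OGD, and the difference between the responses did not pass (0.06, SE 0.08, adjusted p = 0.463). The ratio of Adcy8 to Adcy1 counts was 0.178 ± 0.0179 in KA and 0.0643 ± 0.00472 in KA control, and 0.0706 ± 0.00222 in OGD and 0.0939 ± 0.00431 in OGD control (SD, n = 3 each). In each experiment the ratios did not overlap, at an exact two-sided permutation p of 0.1, the smallest that 3 against 3 libraries allow. This ratio was chosen after the values of both genes were seen. In KA its separation had to follow from their opposite, non-overlapping changes, so the p-value adds no support.

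Adcy6, inhibited by calcium, had 65.2, 66.7 and 72.2 CPM in KA against 88.9, 88.7 and 90.5 CPM in KA control, without overlap, a log2 fold change of -0.39 (SE 0.05, edgeR adjusted p = 5.40e-08). Its OGD libraries, at 65.3, 64.8 and 71.0 CPM, overlapped the OGD control libraries, at 65.2, 65.5 and 69.4 CPM. Some of its exon bases (605 of 6782) are shared with Gm29331 on the opposite strand, and the library kit does not mark strand. Adcy3, the cyclase of neuronal cilia and olfactory neurons, averaged 0.829 ± 0.176 CPM in KA against 1.451 ± 0.154 CPM in KA control. It had low counts, 8, 15 and 12 in KA and 28, 35 and 25 in KA control. The fall was 0.80 on the log2 scale (edgeR adjusted p = 0.00747). Adcy3 shares 1380 of 6246 exon bases with Cenpo on the opposite strand, so its value is uncertain. Adcy4, Adcy7 and Adcy10 had too few counts to test.

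Levels of different genes can be set side by side per exon length only where RefSeq lists 1 transcript, since the sources used here do not say how reads shared by several transcripts were counted. Among such cyclases, Adcy1 stood at 75.1 CPM per kb in KA and 87.7 in KA control, 78.9 in OGD and 96.4 in OGD control. Adcy5 stood at 27.8 CPM per kb in KA and 20.4 in KA control, and Adcy6 at 11.3 in KA and 14.8 in KA control. On this scale Adcy1 was the most abundant of the 4 tested cyclases with 1 transcript in all groups. The CPM summed over all 10 cyclases was 1373 to 1519 in KA and 1391 to 1550 in KA control, ranges that overlap, and 1401 to 1509 in OGD against 1698 to 1799 in OGD control, ranges that do not.

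Soluble guanylyl cyclase pairs an alpha with a beta subunit. The alpha-2 subunit Gucy1a2 had 90.4, 77.9 and 101 CPM in KA against 127, 128 and 124 CPM in KA control, and 104, 115 and 107 CPM in OGD against 112, 114 and 122 CPM in OGD control. Only the KA pair was free of overlap, with a log2 fold change of -0.50 (SE 0.06, edgeR adjusted p = 2.87e-08) in KA and -0.09 (adjusted p = 0.243) in OGD. The beta-1 subunit Gucy1b3, now named Gucy1b1, had 8.16, 8.98 and 8.81 CPM in KA against 11.3, 10.8 and 9.50 CPM in KA control, a log2 fold change of -0.28 (SE 0.10, edgeR adjusted p = 0.0127). That call was lost with DESeq2 (adjusted p = 0.0821) and in edgeR without KA control replicate 1 (adjusted p = 0.0573). The alpha-1 subunit Gucy1a3, now Gucy1a1, lies beside it on chromosome 3 (82092427 to 82145789, with Gucy1b3 at 82032006 to 82074689, both on the minus strand). It did not pass in KA (log2 fold change -0.02), but its level set the experiments apart, as described with the controls.

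Of the 5 membrane guanylyl cyclases among the 50 genes, known mainly from retina, gut and olfactory neurons, only Gucy2e could be tested. It had 9.29, 9.94 and 12.1 CPM in KA against 4.16, 3.82 and 5.37 CPM in KA control, a log2 fold change of 1.23 (SE 0.13, edgeR adjusted p = 5.10e-10). In OGD it had 4.70, 4.75 and 5.49 CPM against 6.26, 6.74 and 6.35 CPM in OGD control. The OGD fall of 0.38 on the log2 scale passed (edgeR adjusted p = 0.0287) but was lost with DESeq2 (adjusted p = 0.0717) and without OGD replicate 1, OGD replicate 2, OGD control replicate 2 or OGD control replicate 3 (edgeR adjusted p from 0.0571 to 0.0992).

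Of the 8 tested cAMP-specific phosphodiesterases, 5 rose in KA, none fell and 3 (Pde4c, Pde7b and Pde8b) did not pass, where 35.2% of all tested genes were higher. Pde4d, the most counted of them (chromosome 13, 108449948 to 109953461, plus strand), had 603, 574 and 592 CPM in KA, against 155, 162 and 155 CPM in KA control. It had 344, 352 and 340 CPM in OGD, against 450, 443 and 457 CPM in OGD control. Replicates lay close together and neither pair overlapped. The log2 fold change was 1.91 (SE 0.04, edgeR adjusted p = 5.01e-26), a 3.75-fold rise, in KA and -0.38 (SE 0.04, edgeR adjusted p = 1.35e-08) in OGD. Pde4d made up 92.7 to 92.9% of the counts of cAMP-specific phosphodiesterases in KA and 84.6 to 85.6% in KA control. This is a share of counts and not of transcripts. It takes no account of gene length, and Pde4a, Pde4b, Pde4c, Pde7a and Pde8b have several RefSeq transcripts. The CPM summed over these enzymes was 619 to 651 in KA against 181 to 190 in KA control, and 370 to 388 in OGD against 483 to 496 in OGD control.

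Pde4a had 17.4, 17.9 and 18.8 CPM in KA against 8.65, 8.80 and 8.53 CPM in KA control, a log2 fold change of 1.05 (SE 0.09, edgeR adjusted p = 4.55e-12). Pde4b, linked to inflammatory responses, had 8.97, 9.60 and 8.15 CPM in KA against 4.44, 5.28 and 3.53 CPM in KA control, a log2 fold change of 1.01 (SE 0.14, edgeR adjusted p = 2.17e-07). Neither pair overlapped. Neither gene passed in OGD: Pde4a had 13.7, 14.1 and 13.2 CPM in OGD against 15.3, 13.6 and 12.5 CPM in OGD control, and Pde4b had 4.32, 4.75 and 2.97 CPM in OGD against 4.58, 4.06 and 3.73 CPM in OGD control. Pde4c, at 1.05, 1.35 and 2.25 CPM in KA and 1.07, 1.33 and 1.64 CPM in KA control, passed in no comparison.

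Pde7a and Pde8a, high-affinity cAMP enzymes that are insensitive to the Pde4 inhibitor rolipram, rose in KA by 0.72 (SE 0.16) and 1.0 (SE 0.22) on the log2 scale, from low counts. Pde7a averaged 4.473 ± 0.934 CPM in KA against 2.701 ± 0.171 CPM in KA control. Pde8a averaged 2.21 ± 0.273 CPM in KA against 1.101 ± 0.167 CPM in KA control (SD, n = 3 each). Pde7b, enriched in striatum, was instead the phosphodiesterase with the largest called fall in OGD. It had 11.5, 10.6 and 7.11 CPM in OGD against 14.4, 14.4 and 14.2 CPM in OGD control, without overlap, a log2 fold change of -0.56 (SE 0.12, edgeR adjusted p = 5.02e-04). In KA it had 10.3, 6.79 and 8.40 CPM against 7.58, 7.69 and 7.41 CPM in KA control and did not pass.

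**Figure D2:**
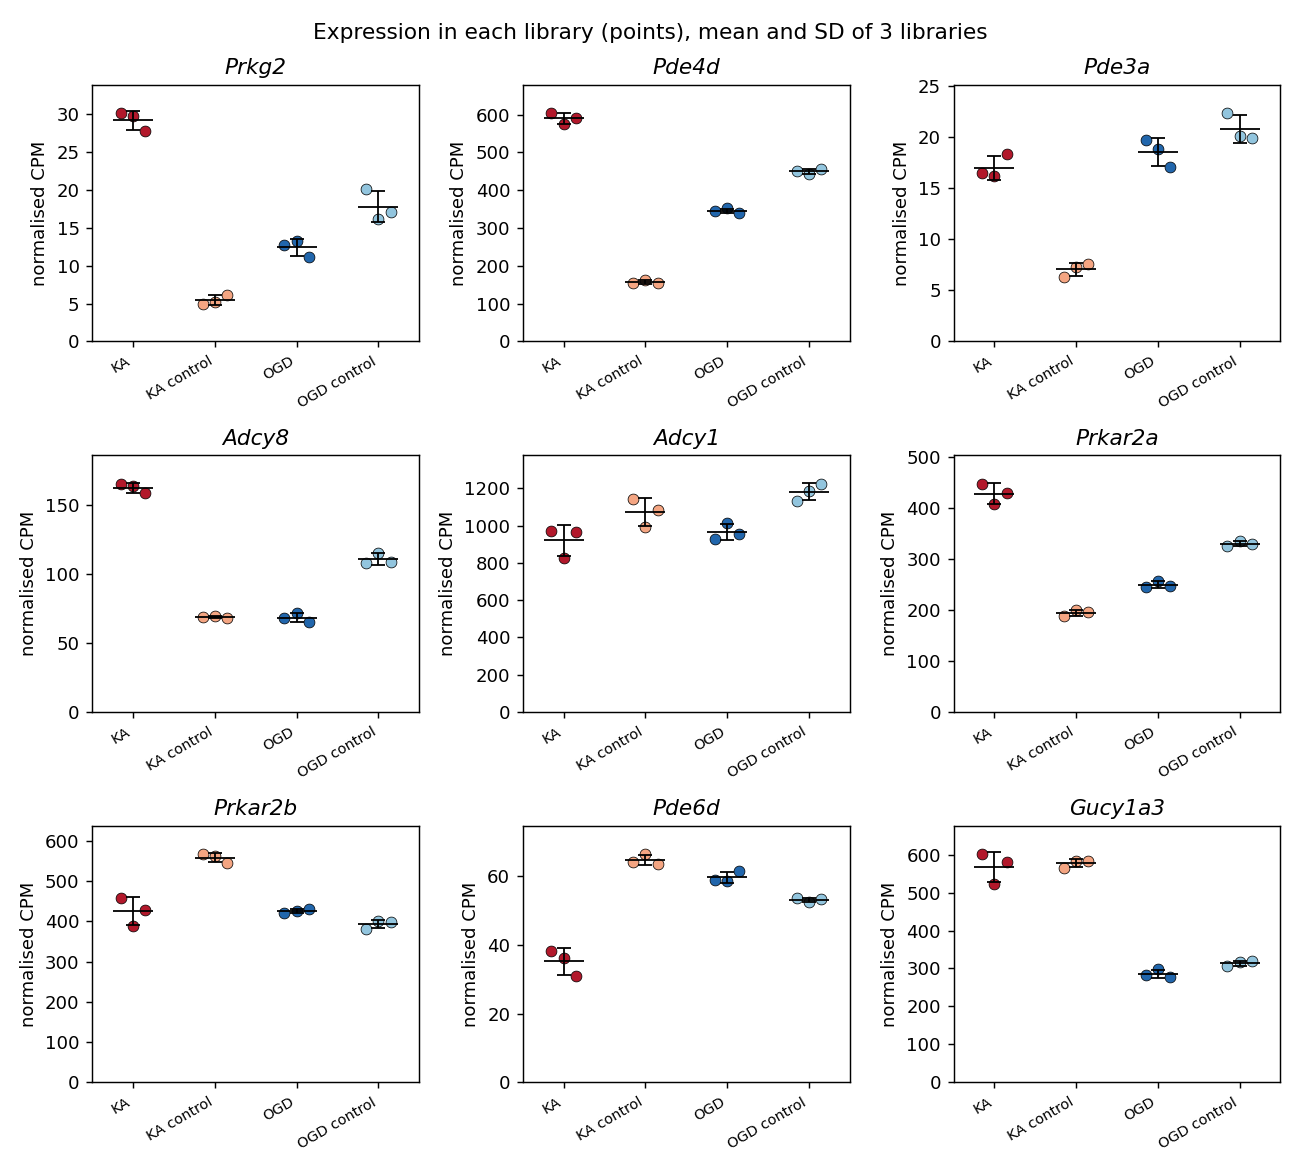
TMM-scaled CPM of selected cyclic nucleotide genes in each library, with KA left of KA control and OGD left of OGD control; points are libraries, and the line and bars show the mean and SD of 3 libraries. Prkg2, Pde4d, Adcy8 and Prkar2a are above KA control in KA and below OGD control in OGD.

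Both cGMP-specific phosphodiesterases fell in KA, where 37.6% of all tested genes were lower. Pde5a, the sildenafil target, had 3.63, 3.48 and 3.91 CPM in KA against 5.56, 5.45 and 5.67 CPM in KA control, without overlap, a log2 fold change of -0.61 (SE 0.14, edgeR adjusted p = 3.67e-04). Its OGD libraries, at 3.88, 3.12 and 4.31 CPM, overlapped 3.06, 4.06 and 3.30 CPM in OGD control. Pde9a, the enzyme with the highest affinity for cGMP, averaged 0.277 ± 0.100 CPM in KA against 0.782 ± 0.0836 CPM in KA control (SD, n = 3 each), so the fall of 1.43 on the log2 scale (SE 0.40, edgeR adjusted p = 0.00233) rests on few counts.

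The enzymes acting on both nucleotides were mixed. Pde3a, inhibited by cGMP, had 16.5, 16.2 and 18.3 CPM in KA against 6.35, 7.30 and 7.56 CPM in KA control, a log2 fold change of 1.25 (SE 0.10, edgeR adjusted p = 9.07e-13). In OGD it had 19.7, 18.8 and 17.0 CPM against 22.3, 20.1 and 19.9 CPM in OGD control and did not pass (adjusted p = 0.111). The 3 KA libraries were thus above KA control but below all 3 OGD control libraries. Pde3b, the enzyme through which insulin lowers cAMP in fat and liver, rose by 0.58 (SE 0.07) in KA, averaging 26.31 ± 1.44 CPM in KA against 17.45 ± 0.622 CPM in KA control. Pde2a, stimulated by cGMP, had 0.889, 1.01 and 1.33 CPM in KA against 2.08, 1.63 and 1.43 CPM in KA control. Its fall of 0.67 on the log2 scale (SE 0.25, edgeR adjusted p = 0.0192) was lost with DESeq2 (adjusted p = 0.116) and in edgeR without KA replicate 1, KA replicate 2 or KA control replicate 1 (adjusted p from 0.0699 to 0.0887). It shares 3955 of 6149 exon bases with Gm45837 on the same strand, so its counts are uncertain.

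Among the calmodulin-dependent Pde1 enzymes, Pde1b fell, at 3.07, 2.81 and 2.58 CPM in KA against 3.93, 5.11 and 4.80 CPM in KA control, a log2 fold change of -0.72 (SE 0.17, edgeR adjusted p = 2.84e-04). Its OGD libraries, at 3.01, 4.46 and 4.09 CPM, overlapped 3.90, 3.76 and 3.12 CPM in OGD control. Pde1c passed in KA with overlapping libraries (1.70, 2.86 and 3.08 CPM in KA, against 2.25, 1.29 and 1.48 CPM in KA control), and Pde1a passed in no comparison. Pde10a, a striatal enzyme outside the 50 genes, had 6.30, 7.86 and 7.57 CPM in KA against 4.83, 4.51 and 4.80 CPM in KA control, a log2 fold change of 0.63 (edgeR adjusted p = 5.09e-05). It had 5.64, 6.52 and 6.44 CPM in OGD against 6.80, 8.83 and 8.49 CPM in OGD control, a log2 fold change of -0.38 (edgeR adjusted p = 0.0103). Also outside the 50, Pde11a fell in KA by 1.38 on the log2 scale, averaging 0.266 CPM in KA against 0.681 CPM in KA control, and Pde12, a mitochondrial enzyme that does not act on cyclic nucleotides, rose by 0.18.

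Of the 37 tested genes, only Pde6d, the prenyl-binding protein (chromosome 1, 86542994 to 86582629, minus strand), was called lower in KA and higher in OGD. It had 38.3, 36.3 and 30.9 CPM in KA against 64.1, 66.3 and 63.6 CPM in KA control, and 58.8, 58.7 and 61.5 CPM in OGD against 53.6, 52.3 and 53.3 CPM in OGD control. Neither pair overlapped. The log2 fold change was -0.88 (SE 0.06, edgeR adjusted p = 5.52e-14) in KA and 0.17 (SE 0.06, edgeR adjusted p = 0.0191) in OGD. The OGD rise was lost without OGD replicate 3 (edgeR adjusted p = 0.0816) and without OGD control replicate 2 (adjusted p = 0.0690). The catalytic and inhibitory Pde6 subunits of photoreceptors had too few counts to test, and Pde4dip did not pass in KA or OGD.

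The PKA catalytic subunits changed little. Prkaca had 11.5, 9.60 and 8.23 CPM in KA against 7.81, 8.03 and 7.97 CPM in KA control, and 7.77, 8.25 and 8.96 CPM in OGD against 6.26, 5.73 and 8.0 CPM in OGD control. The OGD pair overlapped. Both rises were small (log2 fold change 0.30 in KA and 0.32 in OGD, SE 0.12 each, edgeR adjusted p = 0.0239 and 0.0437), and both were lost with DESeq2 (adjusted p = 0.0588 in KA and 0.103 in OGD). In edgeR the KA call was lost without KA replicate 1 (adjusted p = 0.187) or KA control replicate 1 (0.0538), and the OGD call without OGD replicate 2, OGD replicate 3, OGD control replicate 1 or OGD control replicate 2 (adjusted p from 0.0744 to 0.260). Prkacb had 25.5, 22.2 and 26.3 CPM in KA against 26.0, 30.7 and 31.0 CPM in KA control, overlapping, a log2 fold change of -0.26 (SE 0.08, edgeR adjusted p = 0.00309). Its OGD libraries, at 29.4, 30.4 and 28.8 CPM, overlapped OGD control at 29.5, 33.1 and 30.9 CPM.

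The type II regulatory subunits, which tether PKA to anchoring proteins, moved in opposite directions in KA. Prkar2a (chromosome 9, 108689314 to 108750436, plus strand) had 448, 408 and 430 CPM in KA against 189, 199 and 196 CPM in KA control, and 245, 257 and 248 CPM in OGD against 325, 335 and 330 CPM in OGD control. Prkar2b, the neuronal type II subunit (chromosome 12, 31958476 to 32061296, minus strand), had 457, 390 and 430 CPM in KA against 567, 563 and 546 CPM in KA control, and 421, 425 and 431 CPM in OGD against 382, 402 and 398 CPM in OGD control. No pair overlapped. The log2 fold changes in KA were 1.14 (SE 0.04) for Prkar2a and -0.39 (SE 0.05) for Prkar2b (edgeR adjusted p = 6.16e-20 and 9.74e-09). In OGD they were -0.40 (SE 0.04) for Prkar2a and 0.11 (SE 0.05) for Prkar2b (edgeR adjusted p = 2.03e-08 and 0.0604), so Prkar2b did not pass in OGD.

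The ratio of Prkar2a to Prkar2b counts, chosen after these values were seen, was 0.979, 1.05 and 1.0 in KA against 0.333, 0.354 and 0.359 in KA control. It was 0.581, 0.605 and 0.574 in OGD against 0.852, 0.833 and 0.830 in OGD control. The ratio does not depend on the scaling between libraries. Neither pair overlapped (exact two-sided permutation p = 0.1 in each experiment, the smallest possible). This separation had to follow, in each experiment, from the opposite, non-overlapping changes of Prkar2a and Prkar2b. The p-values therefore add no support. The untreated groups themselves differed in the ratio, with KA control below all OGD libraries and OGD control above them.

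**Figure D3:**
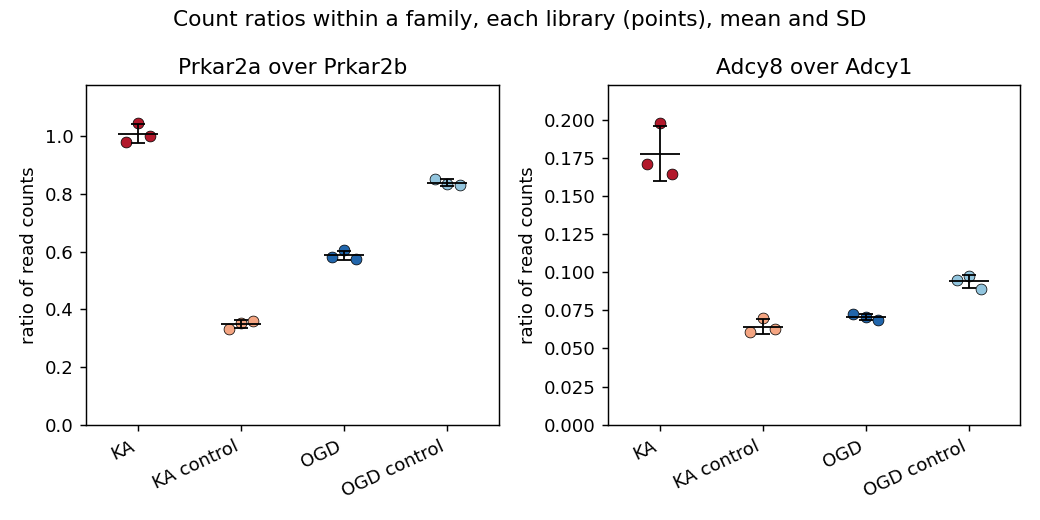
Ratio of read counts for Prkar2a over Prkar2b and Adcy8 over Adcy1 in each library, with KA left of KA control and OGD left of OGD control; the line and bars show the mean and SD. Both ratios are higher in KA than in KA control and lower in OGD than in OGD control in all 3 libraries of each group.

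The type I subunit Prkar1a had 1340, 1236 and 1258 CPM in KA against 879, 908 and 888 CPM in KA control, a log2 fold change of 0.52 (SE 0.04, edgeR adjusted p = 9.89e-13). In OGD it had 1066, 1055 and 1047 CPM against 1117, 1128 and 1167 CPM in OGD control. That fall of 0.11 on the log2 scale (SE 0.04, edgeR adjusted p = 0.0339) was the smallest called change, and it was lost without any count filter (adjusted p = 0.102), and in edgeR without OGD replicate 1, 2 or 3 or without OGD control replicate 2 or 3 (adjusted p from 0.0564 to 0.140). Prkar1b, the neuronal type I subunit, passed in neither treatment: it had 10.9, 12.2 and 11.7 CPM in KA against 11.3, 10.3 and 10.5 CPM in KA control, and 14.5, 13.6 and 12.0 CPM in OGD against 13.3, 13.5 and 11.8 CPM in OGD control. The CPM summed over the 4 regulatory subunits was 2045 to 2256 in KA against 1641 to 1681 in KA control, and 1738 to 1751 in OGD against 1838 to 1906 in OGD control.

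Prkg2, the membrane-bound PKG, had the largest rise of the 37 genes in KA (chromosome 5, 98929773 to 99037351, minus strand). It had 30.1, 29.8 and 27.8 CPM in KA against 5.0, 5.24 and 6.18 CPM in KA control, a 5.34-fold rise (log2 fold change 2.42, SE 0.10, edgeR adjusted p = 1.89e-19). In OGD it had 12.7, 13.3 and 11.2 CPM against 20.2, 16.2 and 17.1 CPM in OGD control, a log2 fold change of -0.51 (SE 0.09, edgeR adjusted p = 6.02e-05). No libraries overlapped within an experiment. The soluble PKG gene Prkg1 had 1.53, 1.8 and 1.83 CPM in KA against 1.35, 1.12 and 1.33 CPM in KA control, and 1.5, 1.44 and 1.51 CPM in OGD against 1.15, 1.73 and 1.47 CPM in OGD control. It passed in neither, and at these counts its KA log2 fold change of 0.46 had a 95% interval, not adjusted for multiple tests, of 0.01 to 0.91.

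**Figure D4:**
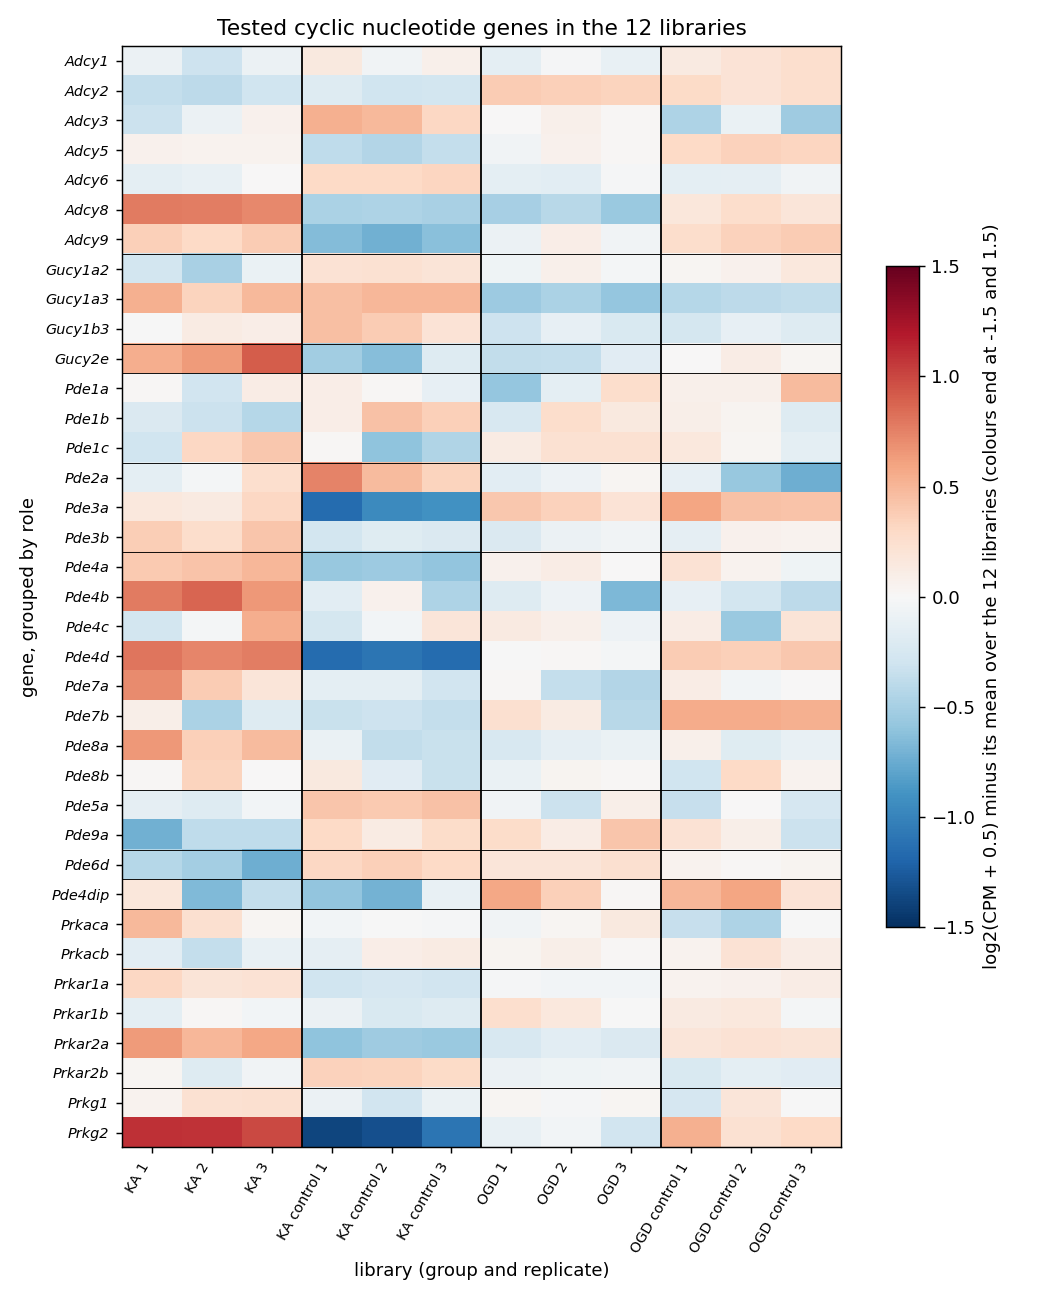
Level of each tested cyclic nucleotide gene in each of the 12 libraries, as log2(CPM + 0.5) minus the gene's mean over all libraries, with genes grouped by role. Prkg2, Pde4d and Pde3a are lowest in the KA control libraries, and Gucy1a3 is higher in both groups of the KA experiment than in both groups of the OGD experiment.

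The responses to KA and OGD were then compared directly, as the KA change minus the OGD change; these comparisons share no library. A total of 25 of 37 genes passed, 15 with a higher and 10 with a lower KA response, against 68.2% of all tested genes (33.8% higher and 34.4% lower), which is close to the background. Prkg2 had the largest difference, 2.92 on the log2 scale (SE 0.14, edgeR adjusted p = 8.20e-18), followed by Pde4d (2.29, SE 0.06), Adcy8 (1.94, SE 0.07) and Gucy2e (1.61, SE 0.19). Among genes averaging at least 1 CPM, the most negative differences were those of Pde2a (-1.34, SE 0.41), Pde6d (-1.04, SE 0.08), Pde1b (-0.85, SE 0.23) and Pde5a (-0.70, SE 0.21). Adcy5, Adcy8, Adcy9, Gucy2e, Pde4d, Prkar1a, Prkar2a and Prkg2 were called higher in KA and lower in OGD. The share of all tested genes with these opposite calls was not counted, so no excess over the background can be read from this list. The OGD direction depended on the control: Adcy5, Adcy9, Pde4d, Prkar1a, Prkar2a and Prkg2 were higher in OGD than in KA control. Prkaca was called higher in both and Adcy1 lower in both.

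**Figure D5:**
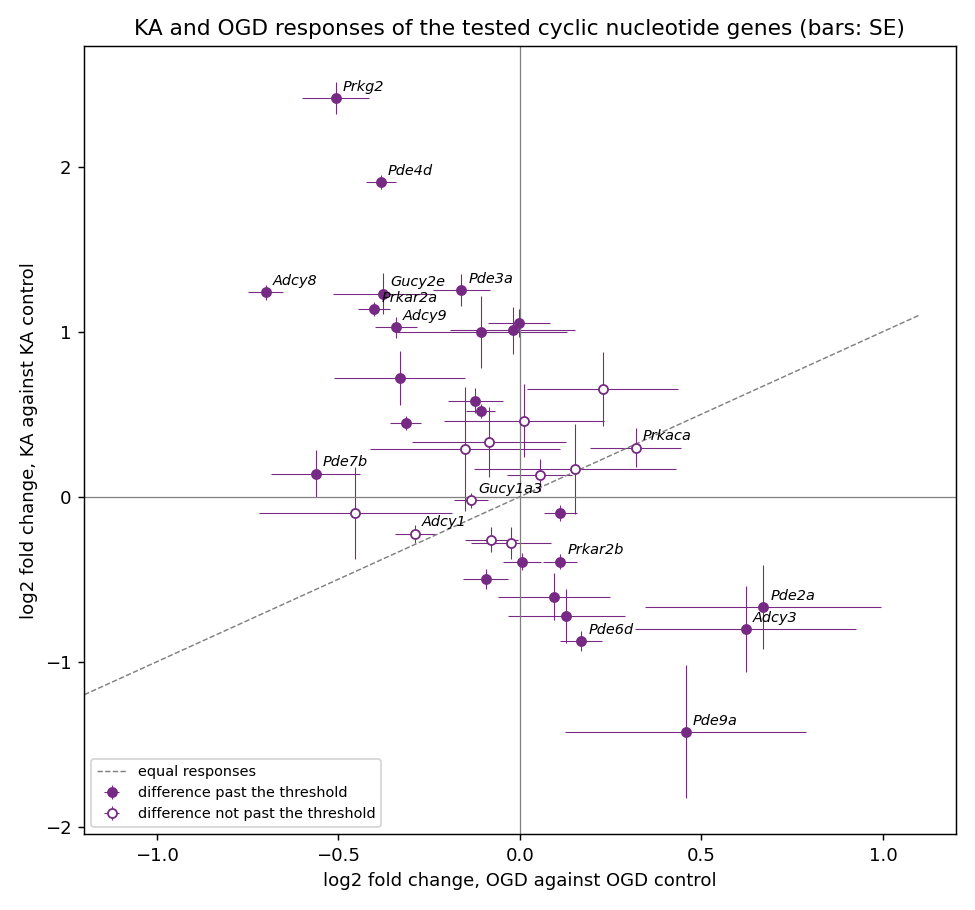
Log2 fold change in KA against KA control (vertical axis) plotted against that in OGD against OGD control (horizontal axis), 1 point per tested cyclic nucleotide gene with SE bars, filled where the difference passed the test. Prkg2, Pde4d, Adcy8 and Prkar2a lie at the upper left, at positive KA and negative OGD changes, and Pde6d lies at the lower right.

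The untreated groups also differed. In KA control against OGD control, 25 of 37 genes passed, 9 higher and 16 lower, against 68.7% of all tested genes (34.5% higher and 34.2% lower). The experiment and the control group cannot be told apart here. Furthest below OGD control in KA control were Prkg2 (log2 difference -1.69, SE 0.10), Pde3a (-1.54, SE 0.09), Pde4d (-1.52, SE 0.04) and Pde4dip (-1.33, SE 0.31), which stood at 0.562, 0.472 and 0.971 CPM in KA control against 1.76, 1.91 and 1.34 CPM in OGD control. The 4 largest among genes averaging at least 1 CPM and higher in KA control were Pde2a (1.48, SE 0.28), Gucy1a3 (0.88, SE 0.05), Pde5a (0.67, SE 0.14) and Gucy1b3 (0.56, SE 0.10). Gucy1a3 had 565, 583 and 583 CPM in KA control against 307, 316 and 319 CPM in OGD control. Its treated libraries stayed near their own controls, at 600, 524 and 581 CPM in KA and 283, 298 and 278 CPM in OGD. The OGD fall of 0.13 (edgeR adjusted p = 0.0235) was lost without OGD replicate 1 or 3 or without OGD control replicate 2 or 3 (adjusted p from 0.0722 to 0.114).

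Because of this, each treatment was also set against the other experiment's control, which reuses the same treated libraries. Of the 16 genes higher in KA than in KA control, 12 were also higher than in OGD control (Adcy8, Gucy2e, Pde3b, Pde4a, Pde4b, Pde4d, Pde7a, Pde8a, Prkaca, Prkar1a, Prkar2a and Prkg2). In that comparison 25 of the 37 passed, against 57.6% of all tested genes (29.3% higher and 28.3% lower). Adcy5 and Pde3a were lower, and Adcy9 and Pde1c did not pass. The sizes were smaller for most: Prkg2 was 0.73, Pde4d 0.39, Adcy8 0.55 and Prkar2a 0.38 on the log2 scale in KA against OGD control, while Pde4b, at 1.13, was about as far above either control. Of the 12 genes lower in KA than in KA control, Adcy1, Gucy1a2, Pde6d and Prkacb were also lower than in OGD control, and Gucy1b3, Pde2a and Prkar2b were higher. The other 5 did not pass.

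For OGD the control mattered more. Of the 11 genes lower in OGD than in OGD control, only Adcy1 and Gucy1a3 were also lower than in KA control, while Adcy5, Adcy9, Pde4d, Pde7b, Prkar1a, Prkar2a and Prkg2 were higher and Adcy8 and Gucy2e did not pass. In OGD against KA control 22 of the 37 passed, against 67.3% of all tested genes (33.2% higher and 34.1% lower). Pde4d, for example, was 1.13 above KA control and 0.38 below OGD control on the log2 scale. The treated groups set directly against each other, KA against OGD, differed in 21 genes, 14 higher and 7 lower in KA, against 64.1% of all tested genes (32.6% higher and 31.5% lower). In CPM, OGD libraries lay between the 2 untreated groups for genes including Pde4d, Prkg2, Prkar2a, Prkar1a, Adcy5 and Adcy9, where OGD control was the higher. They also did so for Prkar2b and Pde6d, where KA control was the higher.

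Promoters were available from RefSeq (build GRCm38.p6, 250 bases before to 50 after a start) for 39 of the 50 genes, in 79 windows. They were searched on both strands for the cAMP response element TGACGTCA, to which CREB binds, for its core TGACG, which also lies within the full element, and for the AP-1 site TGANTCA. The full element was in 2 of the 79 windows, 2.53%, against 1.79% of all 32851 windows in the table, and both are overlapping windows of Prkar1a with the same site. The core was in 19 of 79 windows, 24.1% against 20.8% of all windows. It was in 10 of 24 windows of genes higher in KA, 4 of 20 of genes lower in KA, and 3 of 23 of tested genes that did not pass. Counted per gene, the core was in at least 1 window of 17 of 39 genes, 43.6% against 23% of all genes in the table, and of 8 of the 11 genes higher in KA that had a window. Per gene, the core was also in 4 of 10 genes lower in KA and in 3 of 9 tested genes that did not pass. A gene with more windows has more chances of a match, and the 39 genes had 79 windows. Windows of 1 gene can overlap, so they are not independent, and these shares were not tested. The 8 genes were Adcy9, Gucy2e, Pde4a, Pde4b, Pde8a, Prkaca, Prkar1a and Prkar2a, and Adcy5, Pde1c and Pde4d had no match. The AP-1 site was in 5 windows, 6.33% against 7.81% of all windows. The matches of 5 of these 8 genes are printed as examples. Each stretch lies before 1 annotated start of its gene and reads 5′ to 3′ on the gene's strand, with the element or its core on either strand in capitals. Genes can have several starts: the Prkar1a site lies 49 bases before 1 start and 38 bases after another, and 20 of the 30 bases of the Pde4b stretch are exonic in GENCODE.
Prkar1a, chr11:109650889-109650918, plus strand: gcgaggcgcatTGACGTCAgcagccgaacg
Adcy9, chr16:4420499-4420598, minus strand: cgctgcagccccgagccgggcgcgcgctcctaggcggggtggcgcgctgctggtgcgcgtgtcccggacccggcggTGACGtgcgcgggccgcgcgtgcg
Pde4a, chr9:21184001-21184100, plus strand: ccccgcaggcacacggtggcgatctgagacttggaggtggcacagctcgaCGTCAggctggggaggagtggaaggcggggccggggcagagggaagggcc
Pde4b, chr4:102421508-102421537, plus strand: tgatttggctgcaCGTCAattttctcatct
Pde8a, chr7:81213165-81213264, plus strand: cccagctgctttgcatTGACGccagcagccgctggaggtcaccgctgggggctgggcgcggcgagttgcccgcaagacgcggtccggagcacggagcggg
A match is a description of the letters only, and no binding was measured.

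The rest of the pathway was followed in 8 lists of 71 genes outside the 50, of which 59 were tested: 34 were higher and 15 lower in KA, and 6 were higher and 21 lower in OGD, against the background shares given above. The list of cAMP-responsive transcripts had 17 of 18 genes higher in KA and none lower, with a median log2 fold change of 2.96, and none higher and 11 lower in OGD. These transcripts respond to calcium as well as to cAMP. Fos averaged 2579 CPM in KA against 82.4 CPM in KA control, a log2 fold change of 4.97, and 1304 CPM in OGD against 1215 CPM in OGD control, where it did not pass. Fosb (6.45) and Pcsk1 (3.55), a prohormone convertase, also rose in KA, while Bdnf (-0.94), Penk (-0.65) and Crh (-0.44), which encode a neurotrophin, enkephalin and corticotropin-releasing hormone, fell in OGD. All 17 genes of this list that differed between the controls were lower in KA control than in OGD control. The mean CPM in KA was below OGD control for Ppargc1a, Sst, Penk and Crh, and above it for the other genes of the list. In OGD, Bdnf, Penk and Crh averaged 20.9, 64.9 and 57.7 CPM. That was below OGD control (40.1, 102 and 78.3 CPM) but above KA control (7.90, 20.2 and 6.98 CPM).

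Among other cAMP receptors, the Popeye proteins, membrane proteins that bind cAMP, had fitted rises above those of the 37 genes. Popdc3 averaged 40.1 CPM in KA against 5.55 CPM in KA control, and 5.28 CPM in OGD against 6.76 CPM in OGD control. Its log2 fold change was 2.84 (SE 0.09, edgeR adjusted p = 2.32e-22) in KA and -0.35 (SE 0.12, edgeR adjusted p = 0.0236) in OGD, and Bves rose by 2.58 in KA. Of the 4 tested genes of the list of exchange factors and Popeye proteins, 3 rose in KA and none fell, the other riser being Rapgef2 (0.40), an activator of Rap. In OGD 2 fell, Popdc3 and Rapgef2 (-0.16). Rapgef2 averaged 191 CPM in KA, above 145 CPM in KA control but below 235 CPM in OGD control.

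Upstream of the cyclases, 5 of 7 G protein alpha subunits rose in KA and 1 fell, among them Gnas (0.75), which encodes the stimulatory subunit, its olfactory relative Gnal (0.63), and Gnao1 (0.55). In OGD 1 rose, the inhibitory Gnai2 (0.22), and 1 fell, Gnaz (-0.32). Gnas averaged 20.9 CPM in KA, above 12.5 CPM in KA control but below 23.3 CPM in OGD control. The KA means of Gnal and Gnao1 were above both controls. Of the PACAP and VIP genes, whose receptors activate cyclases, 2 of 5 rose and 1 fell in KA. The peptide gene Adcyap1 averaged 214 CPM in KA against 90.7 CPM in KA control (log2 fold change 1.24), and 104 CPM in OGD against 182 CPM in OGD control (-0.81). Its receptor Adcyap1r1 averaged 0.678 CPM in KA against 2.34 CPM in KA control (-1.77), whereas Vipr1 averaged 9.08 CPM in KA against 2.07 CPM in KA control (2.10).

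Anchoring proteins, which hold PKA at its targets, split in KA, with 4 of 13 higher and 7 lower, and in OGD, with 2 higher and 3 lower. Akap7 averaged 53.9 CPM in KA against 123 CPM in KA control (log2 fold change -1.2) and 59.9 CPM in OGD against 45.8 CPM in OGD control (0.38). Akap8l fell by 0.71 in KA, Akap13 rose by 1.1, and Akap12 (-0.36) and Akap6 (-0.33) fell in OGD. The PKA inhibitor Pkia fell in KA (-0.30), the only one of 2 tested inhibitor genes to pass, and neither passed in OGD. Of 6 cyclic nucleotide-gated channel genes, 2 rose and 3 fell in KA and 2 rose and 2 fell in OGD. Hcn3 (-0.43), Hcn2 (-0.42) and Hcn4 (-0.29), pacemaker channels, were the 3 that fell in KA. In OGD Hcn3 (0.33) and Hcn2 (0.16) rose and Hcn4 (-0.46) fell. Of 4 tested genes of nitric oxide and natriuretic peptide signalling, 1 rose and 2 fell in KA, with Nos1ap, an adaptor of nitric oxide synthase, at 0.64 and the synthase gene Nos1 at -0.21. In OGD Npr2, a natriuretic peptide receptor, rose (0.30) and Nos1ap fell (-0.41).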

How the data were processed

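RNA was sequenced from 12 libraries of primary mouse neurons, 4 groups of 3. Per the labels' protocols, total RNA was extracted with the RNeasy kit and libraries were made with the TruSeq RNA kit v2, a kit without strand marking. The build mm10 and the tools HTSeq 0.6.1, TopHat 1.4.1 and bcl2fastq 1.8.4 are named per the submitters' processing notes; the sources used here give neither their settings nor the annotation. The authors deposited 1 table of raw read counts by gene symbol, without normalization. The OGD columns are headed OGT and were matched to the OGD titles by name.

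Tests were run in edgeR 4.0.16 (R 4.3.3): filterByExpr (minimum count 10, minimum total 15), TMM scaling, and quasi-likelihood tests in 1 fit of the 12 libraries with a mean for each of the 4 groups (8 residual degrees of freedom) and a common biological coefficient of variation of 0.0402. Calls needed an adjusted p under 0.05, by Benjamini-Hochberg over all 13139 tested genes. SEs come from the test statistic. Scripts were tested on simulated data. The limit set by a count of 0 (3 counts) was 0.129 to 0.249 CPM, for counting error only. Replicate pairs were compared by chi-square, which per degree of freedom was 1.48 to 6.19, above sampling noise, and each library was counted once. Locations and exon overlaps come from GENCODE M21, on the same build.

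The genes and lists were chosen with earlier results of these data known. Genes given library by library were called, averaged at least 1 CPM and had no overlap between the groups' libraries: up to 8 rises and 8 falls in KA, 5 each in OGD, 4 each for the difference of responses (overlap allowed) and 4 each for the controls. Adcy1, Pde4a to Pde4d, Pde10a, the PKA subunits, Prkg1 and Prkg2 were added regardless of outcome. Genes of the pathway lists were those with the smallest adjusted p, up to 3 a list and treatment. The count ratios and genes named beyond this were chosen after their values were seen. Alternatives were DESeq2 1.42.0, its size factors in edgeR, no count filter, a minimum of 1 CPM throughout a group, a replicate block, fits of only the groups compared, genes with 1 RefSeq transcript, the other experiment's control, and leaving out each library. No library was left out of the tests reported.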

Additional observations from a re-analysis of the deposited data

Results flagged for a closer look

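The response to KA, as KA minus KA control on the log2 scale, was compared with the response to OGD, as OGD minus OGD control, by an interaction contrast (edgeR quasi-likelihood test, Benjamini-Hochberg adjusted p under 0.05). The genes below are listed because that difference passed; 68.2% of all tested genes did so. No explanation of these differences was tested.

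Among the cyclases the difference was 1.94 for Adcy8, 1.37 for Adcy9, 0.76 for Adcy5, -0.21 for Adcy2, -0.40 for Adcy6 and -1.42 for Adcy3, and 1.61 for Gucy2e and -0.40 for Gucy1a2. Adcy2 passed neither in KA nor in OGD alone, with 69.3, 67.4 and 72.1 CPM in KA against 77.6, 72.3 and 73.1 CPM in KA control, and 116, 114 and 112 CPM in OGD against 108, 103 and 106 CPM in OGD control. Among phosphodiesterases it was 2.29 for Pde4d, 1.41 for Pde3a, 1.11 for Pde8a, 1.05 for Pde4a, 1.05 for Pde7a, 1.03 for Pde4b, 0.71 for Pde3b and 0.70 for Pde7b. It was negative for Pde5a (-0.70), Pde1b (-0.85), Pde2a (-1.34) and Pde9a (-1.88), and also for the prenyl-binding protein gene Pde6d (-1.04). Among the kinase genes it was 2.92 for Prkg2, 1.54 for Prkar2a, 0.63 for Prkar1a and -0.51 for Prkar2b.

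Of the pathway genes outside the 50, the transcripts that respond to cAMP had differences of 6.65 for Fosb, 4.86 for Fos, 4.04 for Bdnf, 3.83 for Pcsk1, 3.30 for Crh and 2.13 for Penk. For the Popeye genes it was 3.20 for Popdc3 and 2.94 for Bves, with 0.56 for Rapgef2. The difference was 2.49 for Vipr1, 2.05 for Adcyap1 and -1.65 for Adcyap1r1. It was 0.82 for Gnas, 0.79 for Gnal and 0.59 for Gnao1. Among anchoring proteins it was 1.09 for Akap13, 0.73 for Akap6, 0.17 for Akap12, -0.87 for Akap8l and -1.59 for Akap7, and -0.31 for the inhibitor gene Pkia. It was 1.05 for Nos1ap, -0.38 for Nos1, -0.40 for Npr2, -0.58 for Hcn2 and -0.75 for Hcn3.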

How the results depend on the processing

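DESeq2's size factors in edgeR, no count filter and a minimum of 1 CPM throughout a group left each count of called genes within 1.5 times of the reported one. In OGD, 1 gene was called higher by DESeq2 and 4 in the fit of only the groups compared, against 2 reported. Leaving out 1 library gave 8 to 13 calls in OGD (0 to 2 higher, 8 to 11 lower; 8 without OGD control replicate 2), 25 to 28 in KA, 25 to 26 for the difference of responses and 22 to 26 between the controls. Among genes with 1 RefSeq transcript, 16 of the 37, there were 13 calls in KA (8 higher, 5 lower), 14 for the difference (9 higher, 5 lower) and 14 between the controls (4 higher, 10 lower); fewer genes were tested there. Set against KA control, OGD gave 22 calls, 13 of them higher. In that comparison the log2 fold change turned to -0.12 for Pde6d, 0.36 for Pde7b, 1.18 for Prkg2, 0.36 for Prkar2a, 1.13 for Pde4d, 0.17 for Gucy2e, 0.67 for Adcy9 and 0.24 for Prkar1a. Set against OGD control, KA turned to -0.29 for Pde3a, 0.81 for Pde2a, 0.060 for Pde5a, 0.03 for Adcy6, 0.11 for Prkar2b and 0.28 for Gucy1b3. The cause was not tested. Between the controls, calls were also lost for Pde1b (DESeq2, adjusted p = 0.132; edgeR without OGD control replicate 3 or KA control replicate 2 or 3, 0.0671 to 0.150), Adcy1 (edgeR without OGD control replicate 2 or 3 or KA control replicate 2, 0.0608 to 0.220) and Prkar1b (edgeR without OGD control replicate 2 or KA control replicate 2, 0.0635 and 0.0506).

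A replicate block gave 12 calls in OGD, 28 in KA, 25 for the difference and 28 between the controls; the OGD call of Prkar1a was lost (adjusted p = 0.0659). After removing group means, same-numbered libraries correlated by 0.026 to 0.046 in the OGD pair and by -0.048 to -0.038 in the KA pair. Each OGD library correlated best with its own number, and no KA library did. With 3 libraries a group, these values cannot decide whether same-numbered libraries shared a culture. Changes in the 13 untested genes, with at most 12 counts in a library, were not detectable at this depth.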
